A study of Rattus norvegicus with 28 samples.

Results

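The transcripts described here come from very long protein-coding genes of the rat striatum, the input nucleus of the basal ganglia. They were selected from the deposited expression table as genes with a span of at least 500000 bases and a mean level of at least 10 RPM (reads per 1000000 reads assigned to genes) over 28 libraries. Genes of several families were left out by the first letters of their names, among them glutamate and GABA receptor subunits, potassium and calcium channels, kinesins, synaptotagmins and collagens. Of 39538 rows, 22940 were protein-coding and 247 of these reached the length. Of those, 60 were under the minimum level and 17 were left out by name, which left 170 genes. The mean level over all libraries chose the genes, so their levels are given as a description, and the comparisons between groups did not enter the choice.

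The libraries came from striatum of male rats, labelled 12 weeks post injury in every group. Wild-type (wt) rats were compared with transgenic (TG) rats labelled {delta}ETorA, a model of DYT-TOR1A dystonia, a movement disorder in which torsinA lacks a glutamic acid. The design held 8 naive wt, 6 wt crush, 8 naive TG and 6 TG crush libraries, where crush stands for a 30 second crush of the right sciatic nerve. The promoter of the transgene, and whether a library pools animals, are not given in the sources used here. Human TOR1A was listed at 102 to 144 RPM in the TG libraries and at 0 to 0.972 RPM in the wt libraries. All 17 markers of spiny projection neurons, the main cell type of the striatum, were detected, with a summed level of 8656 to 17498 RPM. In 5 libraries (naive wt 197, 199 and 202, naive TG 190 and TG crush 220) Slc17a7, a vesicular glutamate transporter of cortical neurons, was above 20 RPM. TG crush library 223 had the highest share of mitochondrial reads in its group, 18.5%, and the lowest spiny neuron marker level in its group.

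Genes of this length are common in neurons, where they encode adhesion molecules, synaptic scaffolds and channel subunits. An RNA polymerase needs many hours to cross one of them, so their expression depends on elongation factors and topoisomerases more than that of short genes. Many of them are spliced from exons separated by introns of great length, and several lie at fragile sites, where the chromosome breaks when replication is slowed.

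Promoter sequence was available for 127 of the 170 genes in the RefSeq promoter table (assembly GRCr8). The 4 sequences below are the 250 bases before the start site of the 2 genes whose levels rose most steeply with the spiny neuron marker level and the 2 of the table whose levels fell most steeply with it. They are written 5′ to 3′ on the strand of the gene, and capitals mark CG dinucleotides. Mctp1 lies on the plus strand with this window at chr2:7803234-7803483, and Dgkb on the plus strand at chr6:60368338-60368587. Tmem132d lies on the plus strand at chr12:33906394-33906643, and Dpp10 on the minus strand at chr13:37966216-37966465.
Mctp1: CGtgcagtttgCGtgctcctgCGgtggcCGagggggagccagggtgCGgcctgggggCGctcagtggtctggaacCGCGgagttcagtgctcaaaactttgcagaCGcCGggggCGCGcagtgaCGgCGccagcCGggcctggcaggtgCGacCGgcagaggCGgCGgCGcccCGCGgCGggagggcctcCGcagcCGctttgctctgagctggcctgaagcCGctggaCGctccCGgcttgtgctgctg
Dgkb: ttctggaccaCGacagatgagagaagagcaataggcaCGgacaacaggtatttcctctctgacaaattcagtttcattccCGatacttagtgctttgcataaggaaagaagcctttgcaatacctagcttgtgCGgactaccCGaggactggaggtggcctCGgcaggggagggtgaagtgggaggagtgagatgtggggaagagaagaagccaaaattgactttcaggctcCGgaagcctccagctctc
Tmem132d: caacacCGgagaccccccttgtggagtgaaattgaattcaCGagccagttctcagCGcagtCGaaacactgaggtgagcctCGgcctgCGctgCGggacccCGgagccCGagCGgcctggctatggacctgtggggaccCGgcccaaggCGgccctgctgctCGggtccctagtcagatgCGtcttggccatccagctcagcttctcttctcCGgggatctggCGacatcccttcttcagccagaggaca
Dpp10: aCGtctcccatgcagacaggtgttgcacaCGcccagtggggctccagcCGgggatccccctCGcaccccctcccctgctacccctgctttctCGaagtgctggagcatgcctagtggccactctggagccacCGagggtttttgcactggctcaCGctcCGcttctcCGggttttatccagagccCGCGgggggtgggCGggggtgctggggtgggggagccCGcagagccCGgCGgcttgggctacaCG
The Mctp1 window held 28 CG dinucleotides and 73.2% G or C, and the Dgkb window held 7 and 51.2%. Tmem132d and Dpp10 each held 16, so CG number did not sort these genes by the sign of their slope. Over the 127 promoters the median G or C content was 63.6%, and 86 (67.7%) held at least 10 CG dinucleotides. The share was 72.6% among 402 genes of 200 to 500 kb with the same minimum level and 38.4% among all 27457 promoters of the table. The letters TATAAA, searched on both strands, were found in 4 of the 127 windows (3.15%), against 4.98% of the genes of 200 to 500 kb and 13.1% of all promoters. The letters CACGTG, which read the same on both strands, were found in 8 (6.3%), against 7.96% and 5.79%. TGACGTCA, the full cAMP response element and likewise the same on both strands, was found in 2 (1.57%), against 2.24% and 1.70%. CACGTG and TGACGTCA can overlap by their ends, each was counted on its own, and a match describes the window only.

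The span decided how these genes appeared in the deposited unit. The deposited RPKM (RPM per kilobase of length) was computed by the authors with the whole gene span, introns included, as the length of all 39538 rows. Levels are therefore given in RPM, which is not divided by length, and RPKM is used only where it is named. An order of genes or lists by RPM is an order of read shares. The median span was 696538 bases, and 41 genes were longer than 1 Mb. Dmd, which encodes dystrophin, was the longest with 2369914 bases, followed by Dlg2 with 2357804, Cntnap2 with 2324925 and Lrp1b with 2146933. A minimum of 0.5 RPKM in at least 6 libraries would have removed 162 of the 170. The other 8 pass it: Nbea, Dpp6, Dgkb, Nrcam, Map2k1, Psd3, Phactr1 and Ank3. The lowest count of any of the 170 in any library was 151 reads. This follows largely from the rule, since its minimum mean level left out long genes with few reads.

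**Figure D1:**
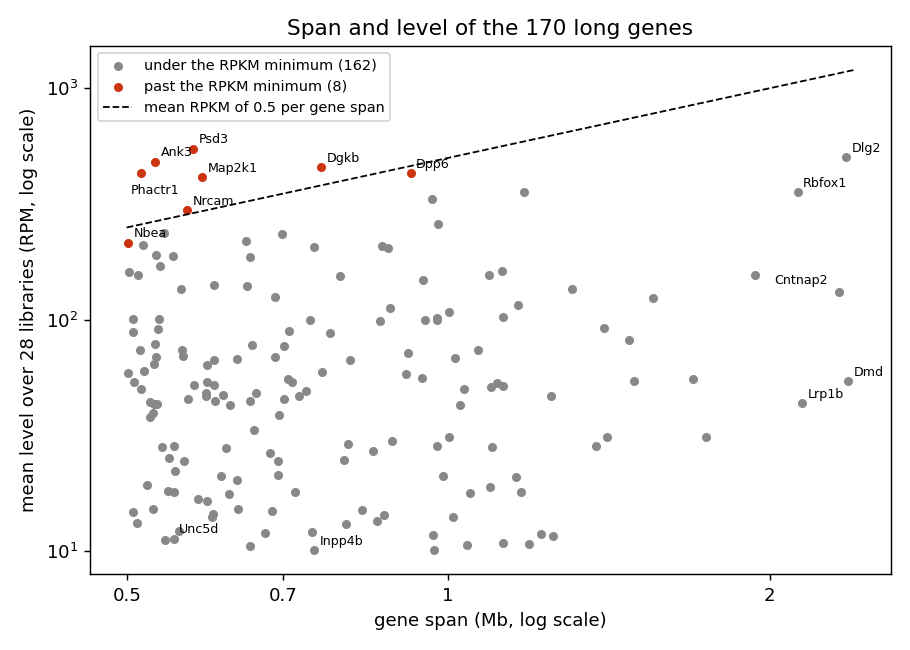
Mean level over 28 libraries in RPM (log scale) against gene span in megabases (log scale), 1 point per gene, for the 170 long genes. The 8 genes in red pass a minimum of 0.5 RPKM in 6 libraries, the dashed line marks a mean of 0.5 RPKM, and 162 genes in grey do not pass.

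Mean levels ran from 10.1 RPM for Inpp4b to 547 RPM for Psd3, with a median of 52.1 RPM. Between 10 and 50 RPM there were 82 genes, between 50 and 200 RPM 68 and above that 20. Psd3, an exchange factor for the small GTPase ARF6, Dlg2 (504 RPM), a scaffold of the postsynaptic density, and Ank3 (481 RPM), the ankyrin of the axon initial segment, had the highest read shares. They were followed by Dgkb (456 RPM), a diacylglycerol kinase, Phactr1 (431 RPM), an actin and phosphatase regulator, and Dpp6 (429 RPM), an auxiliary subunit of Kv4 potassium channels. Per kilobase of span the order differed: Psd3 had 0.948 RPKM and Ank3 0.905 RPKM, but Dlg2 only 0.214 RPKM. At the edge of the level minimum, Inpp4b (10.1 RPM), Sox5 (10.1 RPM) and Lama2 (10.5 RPM) were inside, and Sdk1 (9.94 RPM), Cdkal1 (9.83 RPM) and Ctnna3 (9.58 RPM) were outside. At the edge of the length minimum, Slc24a3 (501787 bases), Nbea (501792) and Rims2 (502167) were inside, and Ppfia2 (496921), Gucy1a2 (491851) and Prkce (489997) were outside.

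By role, 126 of the genes fell into 15 lists and 44 into none. The medians of the lists are in RPM, so their order is one of read shares and not of levels per kilobase. Synaptic scaffolds and proteins of vesicle release had the highest median among lists of more than 2 genes, 142 RPM over 13 genes, led by Dlg2, Ank3 and Anks1b (356 RPM). The 6 receptor protein tyrosine phosphatases had a median of 122 RPM, led by Ptprn2 (205 RPM), Ptprd (187 RPM) and Ptprt (154 RPM). The 7 cadherins and catenins, which join cells through calcium-dependent contacts, had 99.6 RPM and were led by Ctnnd2 (207 RPM). The 8 IgLON and related immunoglobulin adhesion genes had 97.2 RPM, led by Lsamp (219 RPM). The neurexin complex, which links presynaptic to postsynaptic membranes, had 84.8 RPM over 6 genes, led by Nrxn3 (157 RPM). Lower medians were those of the 7 transcription and chromatin genes (22.2 RPM, led by Camta1 with 204 RPM) and the 8 neuregulin, trophic and FGF genes (19.8 RPM, led by Fgf13 with 101 RPM). Between these lay the 9 contactins, Caspr proteins, teneurins and other adhesion molecules (55.9 RPM, led by Nrcam of the latter with 297 RPM). The 6 axon guidance genes lay there as well (50.1 RPM, led by Robo2 with 124 RPM).

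Many of these genes share their span with other genes. In Rnor_6.0, the assembly named in the submitters' processing notes, 34 of the 170 hold 79 other protein-coding genes wholly inside their span on the same strand, and all 79 were listed at 0 in every library. Across the table the same held for all 512 protein-coding genes inside another gene on the same strand (100%). Of 653 inside a gene on the opposite strand only, 15.0% were listed at 0 throughout, and of 16899 overlapping no other gene 14.6% were. A 0 in such a gene is therefore not read here as absence of its transcript. Thumpd1 holds 6 such genes, among them Crym, a thyroid hormone binding crystallin, with Eri2, Dcun1d3 and Dnah3. Ppp1r7 holds 16, among them Gpc1, Capn10 and Rnpepl1, and Map2k1 holds Ids and Tmem185a. Ctdspl holds Eomes, Golga4 and Itga9, Mapre2 holds Trappc8, B4galt6 and Garem1, and Nr3c1, the glucocorticoid receptor gene, holds Arhgap26. On the opposite strand 41 of the 170 hold 91 genes, of which 10 were listed at 0. Kif1a, a kinesin of synaptic vesicle precursors, lies opposite to Ppp1r7 and had 867 RPM, and Trim32 lies opposite to Astn2 and had 106 RPM. By default featureCounts leaves a read that falls on more than 1 gene unassigned. The settings used are not given in the sources used here, and how much of a level is intron reads cannot be told from the table.

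Some of the lengths were particular to the annotation used. Of the 170, 168 were matched in the RefSeq gene table (GRCr8), all on the same chromosome, 13 of them under another current symbol. LOC102551716 is Nkain2 there, Wbscr17 is Galnt17 and LOC103692025 is Lhfpl3. In GRCr8, 34 of the 168 were shorter than 500000 bases. Thumpd1 had 912934 bases in the deposited table and 6041 in GRCr8, Ppp1r7 947491 and 25118, and Map2k1 588356 and 71438. For such a gene the deposited span may hold reads of other transcripts, which was not tested. The results on the 134 genes long in both assemblies are given beside the counts.

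The genes differed widely in how much they varied between libraries. The coefficient of variation over all 28 libraries had a median of 14.0%, was under 10% for 33 genes and above 20% for 31. Tbc1d5, a regulator of endosome transport, varied least with 4.05%, followed by Mapre2 (5.47%), Bcas3 (5.51%) and Ube2e2 (6.63%). Unc5d, a netrin receptor, varied most with 66.7%, followed by Mctp1 (36.0%), Tmem132d (35.1%) and Dpp10 (32.4%). Among protein-coding genes of at least 10 RPM the median rose with length class: 9.05% under 50 kb, 10.3% at 50 to 200 kb, 12.3% at 200 to 500 kb and 14.4% at 500 kb and over. The classes differ in levels and in the kinds of genes they hold, and no test was made of this order.

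Together the 170 genes took 1.27% to 1.67% of the assigned reads. The share was 1.30%, 1.501% and 1.62% (lowest, median, highest) in naive wt, 1.48%, 1.61% and 1.67% in wt crush, 1.39%, 1.502% and 1.59% in naive TG and 1.27%, 1.57% and 1.64% in TG crush libraries. The ranges of all 4 groups overlapped. The lowest share was that of TG crush library 223 and the next lowest that of naive wt library 201, and both were also among the 4 libraries of lowest spiny neuron marker level. Naive wt library 199, with the lowest marker level of all, had a share of 1.51%, and naive TG 192, also among those 4, had 1.46%. Naive TG 191 and 193 had lower shares, 1.39% and 1.41%, at marker levels of 9.20 and 9.24. A link between share and marker level was not tested.

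**Figure D2:**
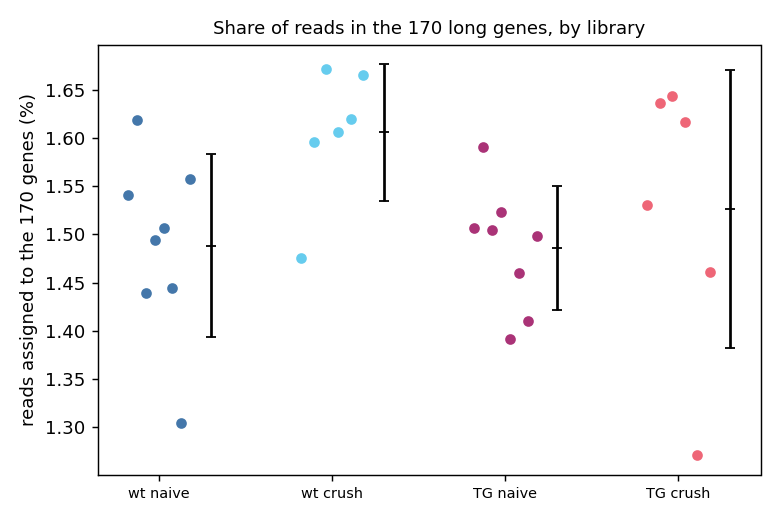
Share of assigned reads in the 170 long genes (%), 1 point per library, for the 4 groups, with the mean and SD at the right of each group. The axis does not start at 0, and the points run from 1.27% in TG crush library 223 to 1.67%, with overlapping groups.

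Genotype did not change any of the 170 past the threshold. The test was limma on log2 (RPM + 0.5) over 18222 genes with Benjamini-Hochberg adjustment at 0.05, and all 170 were tested. In naive rats 0 of 170 passed, where 0.0329% of all genes tested did, and 4 (2.35%) had an unadjusted p under 0.05, beside 4.98% of all genes. In crush rats 0 passed (background 0.00549%) and 31 (18.2%) had an unadjusted p under 0.05, beside 8.06% of all genes. For the mean of both arms 0 passed (background 0.0384%) and 19 (11.2%) had an unadjusted p under 0.05, beside 5.09% of all genes. Voom on the whole reads also gave 0 in each of these comparisons. The median log2 change of the 170 was -0.02 in naive and -0.03 in crush rats, beside -0.01 and 0.00 over all genes tested. The 134 genes long in both assemblies also gave 0 calls in these 3 comparisons.

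Among the genes of lowest p between genotypes were adhesion and receptor genes. Others were of other kinds, such as Ank3 in crush rats and Ctnna2 for the mean of both arms. Astn2, an astrotactin of neuronal migration (chromosome 5, 81179614 to 82168528, minus strand, Rnor_6.0), had 19.5, 21.8 and 31.4 RPM (lowest, median, highest) in naive wt and 15.0, 19.0 and 22.6 RPM in naive TG libraries. The groups overlapped, and naive wt library 199 alone gave the 31.4 RPM. The log2 difference was -0.25 (SE 0.08, limma adjusted p = 0.705). Kirrel3, an immunoglobulin adhesion protein of synapse formation (chromosome 8, 35692525 to 36254755, plus strand), had 137, 149.6 and 160.3 RPM in wt crush and 101, 127 and 137 RPM in TG crush libraries. The ranges overlapped by a narrow margin, since the highest TG crush library (137.4 RPM) exceeded only the lowest wt crush library (136.7 RPM). The log2 difference was -0.27 (SE 0.07, limma adjusted p = 0.424). Tenm3, a teneurin that matches synaptic partners (chromosome 16, 46422676 to 46929023, plus strand), had 102, 127 and 146 RPM in wt crush and 68.1, 95.2 and 107 RPM in TG crush libraries. These groups overlapped too, with a log2 difference of -0.43 (SE 0.13, limma adjusted p = 0.572). Beside these values stood the spiny neuron marker level, which is the mean log2 level of 17 markers. It averaged 9.36 ± 0.07 (SD, n = 6) for wt crush libraries. TG crush libraries averaged 9.09 ± 0.34 (SD, n = 6). With that level as a covariate the Tenm3 difference was -0.29 and the Kirrel3 difference -0.19. Grid1, a delta glutamate receptor, Csmd2 and Ptprt had log2 differences of -0.15, -0.12 and -0.17 in naive rats, and none passed.

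**Figure D3:**
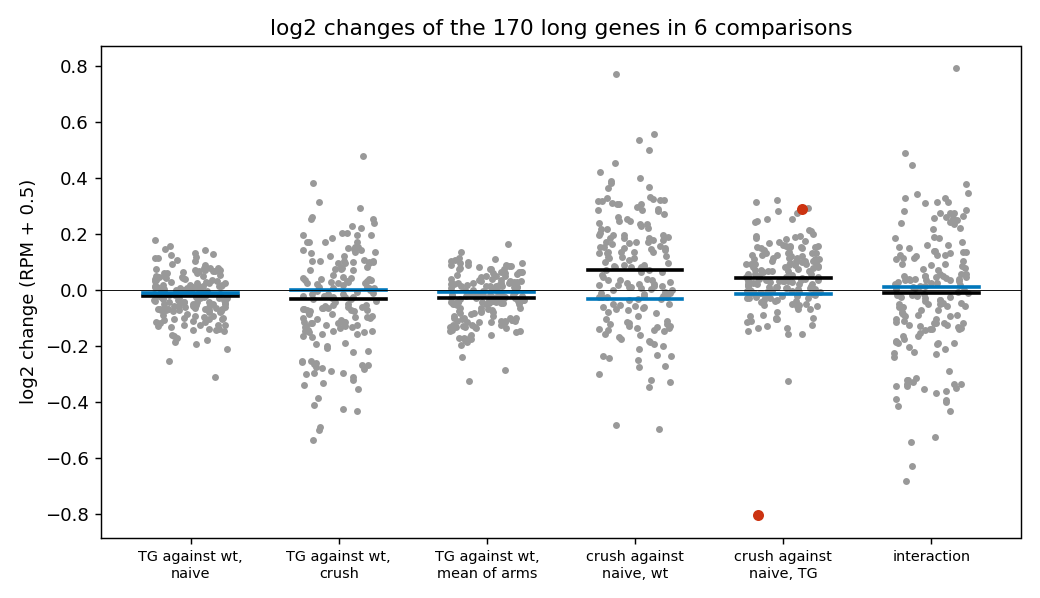
log2 changes on the log2 (RPM + 0.5) scale of the 170 long genes in 6 comparisons, 1 point per gene. Black bars are the medians of the 170, blue bars the medians of all 18222 genes tested, and the 2 large red points, both in crush against naive TG, are the genes that passed.

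Crush against naive wt rats gave 0 calls among the 170, where 0.159% of all genes passed, and voom gave 0 as well. An unadjusted p under 0.05 was found for 54 of the 170 (31.8%), beside 20.8% of all genes. Among genes of 200 to 500 kb with the same minimum level the share was 29.3%, close to that of the 170. The log2 change was positive for 107 of 170 with a median of 0.07, beside a median of -0.03 over all genes. Pde4d, a phosphodiesterase that degrades cAMP (chromosome 2, 40219999 to 41468551, plus strand), had the lowest p. It had 38.3, 43.6 and 47.6 RPM in naive wt and 47.5, 55.2 and 60.05 RPM in wt crush libraries. Only the lowest wt crush library fell within the naive range. The log2 change was 0.33 (SE 0.08, limma adjusted p = 0.0694). Next by p were Rasgef1b (0.40), an exchange factor for Rap, Pcdh11x (0.56), a protocadherin and Adgrb3 (0.28), an adhesion G protein coupled receptor, with limma adjusted p from 0.115 to 0.126. Rasgef1b had 28.4, 35.1 and 48.3 RPM in naive wt and 41.1, 46.9 and 53.8 RPM in wt crush libraries, which overlapped. The spiny neuron marker level averaged 8.99 ± 0.41 (SD, n = 8) for naive wt libraries, below the 9.36 of the wt crush libraries. With it as a covariate the changes were 0.27 for Pde4d, 0.15 for Rasgef1b, 0.30 for Pcdh11x and 0.14 for Adgrb3, and 0 of the 170 passed.

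Crush against naive TG rats gave 2 calls among the 170 (1.18%), 1 lower and 1 higher, and the higher one was Nkain2. Over all genes tested 3.08% passed, 1.08% higher and 2% lower. Among genes of 200 to 500 kb with the same minimum level 1.35% passed, close to the share among the long genes. Voom also called 2 of the 170. The log2 change was positive for 117 of 170, with a median of 0.04 beside -0.01 over all genes. An unadjusted p under 0.05 was found for 19 (11.2%), beside 19.3% of all genes and 10.4% of genes of 200 to 500 kb. Both called genes were among the 134 long in both assemblies.

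Nkain2 encodes a membrane protein that interacts with the beta subunit of the sodium pump (listed as LOC102551716, chromosome 1, 27473251 to 28161521, plus strand). It had 104, 109.7 and 135 RPM in naive TG and 117, 144 and 165 RPM in TG crush libraries. The groups overlapped, with 2 TG crush libraries below the highest naive TG library. In naive wt it had 103, 120.3 and 152 RPM and in wt crush 109, 122 and 138 RPM. The log2 change was 0.29 in TG rats (SE 0.08, limma adjusted p = 0.0469) and 0.01 in wt rats (SE 0.08, limma adjusted p = 0.937). The difference of these changes was 0.28 (SE 0.12, limma adjusted p = 0.613). The call was lost under 21 of 40 other settings or omissions, with log2 changes of 0.23 to 0.34. Without the 5 libraries of more than 20 RPM of Slc17a7 it was 0.23 (limma adjusted p = 0.251).

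Pde4d did not pass in TG rats either. It had 34.3, 43.0 and 47.4 RPM in naive TG and 38.3, 51.8 and 58.1 RPM in TG crush libraries, with a log2 change of 0.24 (SE 0.08, limma adjusted p = 0.0874). LOC102552000, named Zfp808l2 in GRCr8, had a log2 change of 0.19 (limma adjusted p = 0.0533) and LOC501317 one of 0.25 (limma adjusted p = 0.0892), and the groups of both overlapped. LOC501317 holds 9 genes on its strand inside its span, and LOC102552000 is 78779 bases long in GRCr8. The count moved with single libraries: it was 8 without TG crush library 223, among them Pde4d, Lrrtm4 and Ptprt, 4 without TG crush library 226 and 0 without TG crush library 219. It was 1 without any one of naive wt 197, 199, 200 or 202, wt crush 203, 206, 207 or 209, naive TG 189, 190, 191, 193 or 194, or TG crush 220 or 222. With the spiny neuron marker level as a covariate it was 7, and the calls over all genes rose from 562 to 1220.

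The interaction of genotype and crush gave 0 calls among the 170 with limma and with voom (background 0.00549%), and 14 (8.24%) had an unadjusted p under 0.05, beside 7.49% of all genes. Kirrel3 had the lowest p, with -0.32 (SE 0.09, limma adjusted p = 0.405). Pard3, a cell polarity scaffold, had -0.40 and Kalrn, an exchange factor of dendritic spines, -0.34. With the spiny neuron marker level as a covariate these were -0.21, -0.12 and -0.13.

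**Figure D4:**
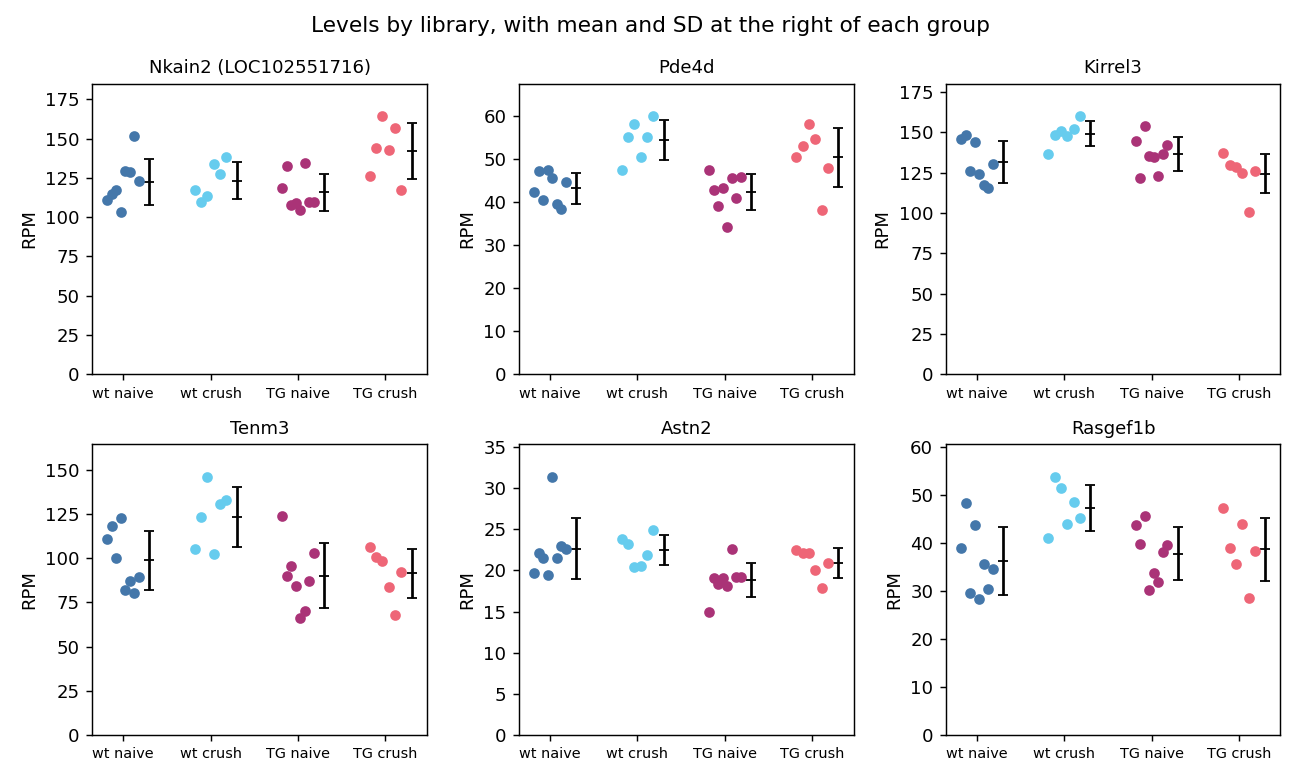
RPM by library for 6 long genes in the 4 groups, 1 point per library, with the mean and SD at the right of each group, on axes that start at 0. For Nkain2, Pde4d, Kirrel3, Tenm3, Astn2 and Rasgef1b the groups compared overlap.

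Of 28 genes of the machinery that transcribes long genes (topoisomerases, elongation and pausing factors, DNA end repair), all were tested. Crush against naive TG rats gave 1 higher, Tdp2, which removes trapped topoisomerase from DNA ends, with a log2 change of 0.46 (limma adjusted p = 0.0117). It gave 2 lower: Leo1 of the PAF1 elongation complex, with -0.32 (limma adjusted p = 0.00623), and Nelfe of the negative elongation factor, with -0.24 (limma adjusted p = 0.0486). Over all genes tested 1.08% were called higher and 2% lower there. The other 5 comparisons gave 0. Top1 and Top2b, the topoisomerases most studied in neurons, had log2 changes of 0.07 and 0.00 between crush and naive TG rats.

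The levels of the long genes moved with the marker level of spiny projection neurons across libraries. In a limma fit with the 4 groups as terms, 64 of the 170 (37.6%) had a positive slope on that level and 51 (30%) a negative slope at an adjusted p under 0.05. Over all genes tested 10.9% had a called positive and 21.2% a called negative slope. Called positive slopes made up 29.3% of genes of 200 to 500 kb, 18.5% of genes of 50 to 200 kb and 12.0% of genes under 50 kb. Called negative slopes made up 23.5%, 24.6% and 22.0% of them. In bulk tissue fewer cells of a type and less RNA per cell cannot be told apart. Without the 2 libraries farthest from the median level, naive wt 199 and 201, the counts were 52 and 42.

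Glial marker sums are given beside the spiny neuron level without a fit, and all 10 oligodendrocyte and all 10 astrocyte markers were detected. The 4 libraries of lowest spiny neuron level were naive wt 199 and 201, TG crush 223 and naive TG 192. The last 3 of these had the 3 highest oligodendrocyte marker sums, 38824, 35446 and 31337 RPM, and naive wt 199 had 21687 RPM. The sum ran from 17696 to 38824 RPM in naive wt, 18664 to 21780.5 RPM in wt crush, 18474 to 31337 RPM in naive TG and 17891 to 35446 RPM in TG crush libraries. The astrocyte marker sum ran from 4107 to 5764 RPM, 4155 to 4363 RPM, 4572 to 5391 RPM and 4047 to 5530.2 RPM in the same groups. In those 4 libraries it was between 5265 and 5764 RPM. The part of glial RNA in the slopes was not tested.

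Mctp1, a calcium-binding protein with C2 domains, had the steepest positive slope. It had 30.7, 59.8 and 99.8 RPM in naive wt, 74.4, 92.7 and 103.8 RPM in wt crush, 27.8, 56.1 and 98.4 RPM in naive TG and 33.2, 64.3 and 109 RPM in TG crush libraries. All groups overlapped, and the wt crush libraries spread less than those of the other groups. Its slope was 1.67 (SE 0.12), so that it changed by more than the markers did. Dgkb had 261 to 610.1 RPM in naive wt and 496 to 619.6 RPM in wt crush libraries, and a slope of 1.12 (SE 0.09). Robo2, a receptor for Slit guidance cues, had a slope of 1.10, and Slit3, a ligand of that family, one of 0.98. Hs6st3, a heparan sulfate sulfotransferase (0.98), Plcb1, a phospholipase C coupled to Gq (0.88), and Phactr1 (0.69) followed the same direction.

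Unc5d had the steepest negative slope, -1.98 (SE 0.33). Naive wt libraries had 4.54, 12.6 and 35.4 RPM, wt crush 5.34, 7.14 and 14.9 RPM, naive TG 4.40, 7.51 and 19.2 RPM and TG crush 5.94, 8.27 and 25.8 RPM. The groups overlapped, and the lowest library of each group lay between 4.40 and 5.94 RPM. Tmem132d, a transmembrane protein of neurons, had -1.07, Ralyl, an RNA-binding protein, -1.02, and Dpp10, an auxiliary subunit of Kv4 channels, -0.96. Myo16 (-0.95), a myosin, Cdk14 (-0.87), a cyclin-dependent kinase, and Asic2 (-0.83), a proton-gated channel, followed.

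The genes of steepest negative slope on the spiny neuron level had positive slopes on the marker level of cortical projection neurons, whose 9 markers summed to 25.1 to 146 RPM. On that level 35 of the 170 (20.6%) had a called positive and 3 (1.76%) a called negative slope, beside 5.53% and 1.45% of all genes tested. Called positive slopes made up 12.1% of genes of 200 to 500 kb, 7.05% of genes of 50 to 200 kb and 4.49% of genes under 50 kb. Called negative slopes made up 2.89%, 2.22% and 1.35% of them. The slopes were 0.95 for Unc5d, 0.54 for Tmem132d, 0.50 for Dpp10, 0.48 for Cdk14 and 0.47 for Myo16. The 3 negative ones were Pard3, Rasgef1b and Utrn, the autosomal relative of dystrophin. Without naive TG 190 and TG crush 220, the libraries farthest from the median level, the counts were 25 and 4. The count of negative slopes was 1 without naive TG 190, 6 without naive wt 201 or 202 and 7 without TG crush 223. Without the 5 libraries of more than 20 RPM of Slc17a7 they were 26 and 28. The 2 marker levels are not independent across libraries. Cortical markers summed to 98.7 and 75.2 RPM in naive wt 199 and naive TG 192, both of low spiny neuron level. In naive wt 201 and TG crush 223, also low, they summed to 54.1 and 56.2 RPM. Naive TG 187 to 189, of spiny neuron level 9.31 to 9.35, had 25.1 to 30.8 RPM. No fit held both levels, so the 2 slopes of a gene are not separate evidence.

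**Figure D5:**
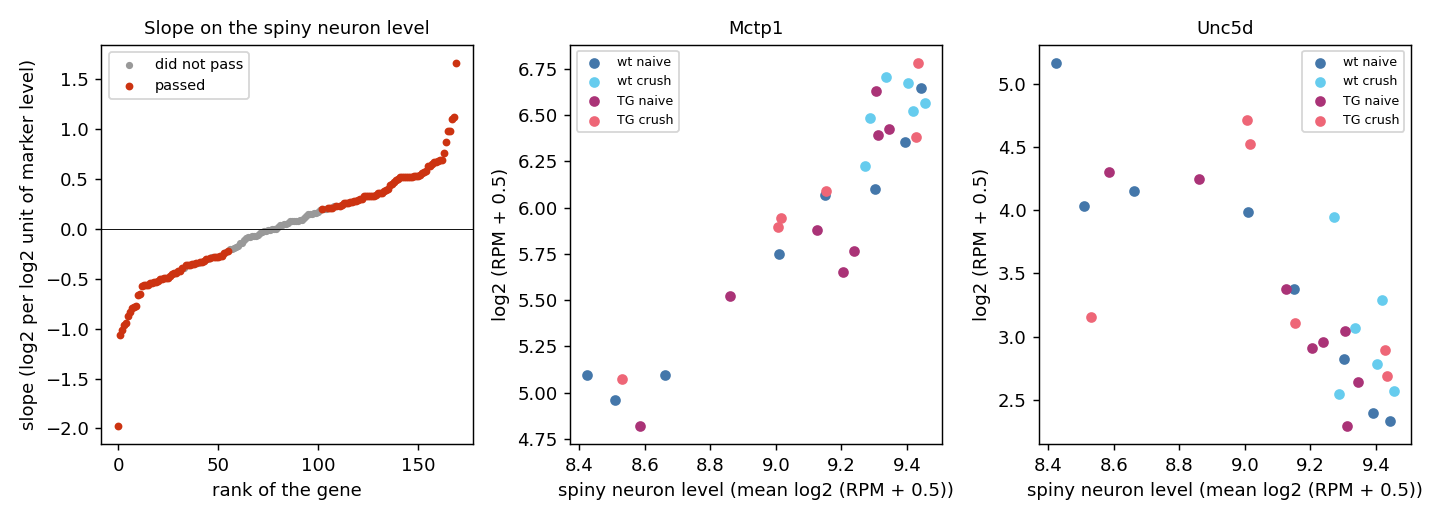
Left, slopes of the 170 long genes on the spiny neuron marker level, in rank order, red where the adjusted p was under 0.05 (64 above 0 and 51 below). Middle and right, log2 (RPM + 0.5) of Mctp1 and Unc5d against that level, 1 point per library coloured by group: Mctp1 rises (slope 1.67) and Unc5d falls (slope -1.98).

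By role, the sign of the slope on the spiny neuron level split families. Synaptic scaffolds gave 7 called positive and 3 called negative slopes of 13, with Anks1b (0.63), Dlgap2 (0.68) and Nbea (0.58) among the positive. Cadherins and catenins gave 5 and 2 of 7, with Pcdh11x (0.67) and Fat3 (0.47) against Cdh18 (-0.54) and Pcdh9 (-0.49). Axon guidance genes gave 4 and 1 of 6, in which Robo2, Slit3, Dcc (0.53) and Robo1 (0.26) stood against Unc5d. Genes of fragile sites, glycosylation and other enzymes gave 10 and 3 of 18. Ion channels, transporters and delta receptors gave 3 and 8 of 16, with Dpp6 (0.21) and Lrp1b (0.53) among the positive. The 7 transcription and chromatin genes gave 0 positive and 3 negative, the neural factor Npas3 (-0.56) and the SoxD factors Sox5 (-0.53) and Sox6 (-0.51). Signalling enzymes split within 1 list as well: Dgkb and Plcb1 were positive, and Adcy2, an adenylyl cyclase (-0.65), and Pde1c, a calmodulin-dependent phosphodiesterase (-0.79), were negative. Nkain2 had a negative slope (-0.28). The marker level averaged 9.12 ± 0.27 (SD, n = 8) for naive TG and 9.09 ± 0.34 (SD, n = 6) for TG crush libraries. With that level as a covariate Nkain2 was among the 7 genes called in crush against naive TG. The part of cell content in the Nkain2 change was not tested.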

How the data were processed

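RNA of 28 striatal libraries was sequenced by the authors as single-end reads of 75 nt from a stranded mRNA kit, per the labels' protocols. The build was Rnor_6.0, and the tools were STAR 2.6.1a, featureCounts (Subread 1.6.3) and DESeq2 1.22.2, per the submitters' processing notes. The deposited table holds RPKM values with decimal commas, recorded as unit other. RPKM times length in kilobases gave RPM. Dividing RPM by the value of 1 read gave whole numbers (tolerance 0.02) for 100% of values, and 29151455 to 38407359 assigned reads per library. A count of 0 allows at most 0.103 RPM (3 reads, counting error only).

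limma 3.58.1 (R 4.3.3) was fitted with moderated variances that follow the mean to log2 (RPM + 0.5) of all 28 libraries and 18222 genes of at least 0.5 RPM in at least 6 libraries, with 4 groups and 6 contrasts. Fold changes on this scale understate changes of low genes. Marker slopes came from the same fit with the mean log2 level of the markers added, a test added after seeing the data. The script was tested on simulated data. Voom, other pseudocounts, filters and scalings, array weights, a spiny neuron covariate and omission of each library were alternatives.

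The members, gene lists and tests were chosen with earlier results of these data known. Named genes were those called per contrast (or the 5 of lowest p), the genes of highest level, length or variation, those at the thresholds, the leaders of each role list and the called machinery genes. Genes named with their slopes, and genes inside others, were picked with their values in view. The labels number libraries but name no animals, so the spread behind a p-value is that of libraries and may be technical. No source used here gives the sequencing run of a library, and within-run values could not be computed. RefSeq names, lengths and promoters are those of GRCr8. Protein sequences were not used here, and some genes that the rule names are not reported here.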

Additional observations from a re-analysis of the deposited data

Results flagged for a closer look

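In 17 genes named in the comparisons and in the summed share, each group was checked for a library that stood apart from the rest of its group, by the gap to its nearest neighbour over the range of the group. The genes were picked by low p in these same libraries, and the groups share libraries. The usual rate of about 1 in 20 by chance therefore need not hold here. Of 72 such groups 5 held one. TG crush library 223 was the lowest of its group in 4 of them: Ctnna2, an alpha catenin, with 94.2 RPM (next 111 RPM), Grid1 with 47.6 RPM (next 59.0 RPM), Kalrn with 153 RPM (next 229.6 RPM) and Kirrel3 with 101 RPM (next 125 RPM). That library also had a mitochondrial share of 18.5%, and the part of either in the other was not tested. Astn2 was high in naive wt library 199 with 31.4 RPM (next 23.0 RPM), a library with more than 20 RPM of Slc17a7.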

How the results depend on the processing

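For the called genes and the 5 of lowest p in each contrast, no direction reversed in any alternative run. Directions of the other long genes were not followed there. The 3 genotype comparisons and the interaction gave 0 called genes in every alternative run. Crush against naive wt gave 1 called gene with median-of-ratios scaling, quantile normalization or the compared groups alone, 24 with array weights (1436 of 18222 over all genes, from 29), and 0 to 5 when 1 library was left out (5 without naive wt 196, 3 without TG crush 223). Crush against naive TG gave 1 without a filter, with the compared groups alone or without the libraries high in Slc17a7. It gave 4 with quantile normalization, 12 with array weights (1753 over all genes, from 562), 7 with the spiny neuron covariate (1220 over all genes), 0 among the 8 genes passing the RPKM minimum, and 0 to 8 when 1 library was left out. For slopes on the spiny neuron level, leaving out 1 library gave 46 to 68 positive and 43 to 57 negative. Array weights gave 41 positive, and the RPKM fit 4 positive and 0 negative of 8. For cortical slopes, leaving out 1 library gave 29 to 40 positive and 1 to 7 negative, and the RPKM fit gave 0 of each. Cortical negative slopes numbered 5 with a pseudocount of 0.1 or with voom, 7 with array weights and 28 without the libraries high in Slc17a7. Causes were not tested. No paired analysis was possible because no replicate number is shared between groups.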
